A study of Homo sapiens with 6 samples.

Results

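The transcripts described here code for Staufen1, its paralog Staufen2 and other proteins that bind or act on double-stranded RNA. They were chosen by their gene symbols, and each of the 9 symbols (STAU1, STAU2, ADAR, ADARB1, DHX9, ILF2, TARBP2, PRKRA and EIF2AK2) matched exactly 1 of the 37879 targets of the array. The cells were of the human line HEK293T, derived from embryonic kidney and easy to transfect, and received either the empty vector (control IP, 3 arrays) or plasmids coding for Stau155-FLAG (Stau1 IP, 3 arrays), by transient transfection. All cells of both groups were treated with nocodazole, which blocks microtubule polymerization, at 50 ng/ml. The sample labels give 15 h of treatment (the methods give a longer time) and place the cells in prometaphase. The anti-FLAG antibody was used on both groups, so a control IP holds what came down without a tagged protein. According to the methods, a Rous sarcoma virus promoter drove the tagged protein. RNA from the immunoprecipitates was read on Illumina BeadChips. A level in an immunoprecipitate depends both on how much of a transcript the cells hold and on how much of it came down, and without total RNA, which was not analysed here, these cannot be told apart.

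Double-stranded RNA-binding proteins share a small folded domain that recognizes the shape of an RNA helix rather than its sequence. Staufen1 and Staufen2 use such domains to bind structured regions of mRNAs and take part in their transport, translation and decay. ADAR and ADARB1 convert adenosine to inosine in RNA helices, and DHX9 is a helicase that unwinds them. ILF2 has no such domain of its own and works within complexes that bind RNA helices. TARBP2 and PRKRA are cofactors of Dicer, and they also act on EIF2AK2 (PKR), the kinase that double-stranded RNA activates and that halts translation by phosphorylating the initiation factor eIF2. The measurement here is of the mRNAs that code for these proteins, not of the proteins.

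Over the 9884 targets detected on all 6 arrays, with detection taken as a detection p under 0.05, the arrays labelled control IP 2 and Stau1 IP 2 did not lie clearly with their own groups. Stau1 IP arrays 1 and 3 had a Pearson correlation of 0.996 with each other, while for Stau1 IP 2 the correlation with them was 0.940 and 0.943, and that with control IP 3 was 0.977. For control IP 2 it was 0.983 and 0.984 with Stau1 IP arrays 1 and 3, against 0.977 and 0.982 with control IP arrays 1 and 3. Whether the labels of these arrays were exchanged was not tested. For the members, each array numbered 2 is therefore given singly, and each comparison is given with and without both of them. Leaving them out was chosen from these same data, so p-values and intervals without them may be too small. Transcripts of mitotic cells were present, with all 6 chosen markers (AURKA, BUB1, CCNB1, CDC20, PLK1 and TOP2A) detected on all 6 arrays, as were the keratins KRT8 and KRT18. Of the markers of other cell types, ALB, CD3E, HBB and PTPRC were detected on 0 arrays. Between 11635 and 13054 targets were detected per array.

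None of the 9 transcripts passed the threshold of the methods, a fold above 2.5 with an unadjusted p under 0.05, in either direction. By limma over all targets, 1 target was past this threshold as higher in the Stau1 IPs (0.00264% of 37879) and 0 as lower, and 1 target had an adjusted p under 0.05 (0.00264%). No member was among them. TARBP2 was the member furthest above the control IPs, with a log2 difference of 0.53, and STAU2 the one furthest below, at -0.51. These 2 of the 9 had an unadjusted p under 0.05, a share of 22.2%, where 8.81% of all targets and 21.8% of the targets detected on all 6 arrays had one. The groups did not overlap for TARBP2 (higher in the Stau1 IPs, as for 6.71% of all targets) and for STAU2 and PRKRA (lower, as for 7.62%). Among the 9884 targets detected on all 6 arrays, the groups did not overlap for 964 as higher and 1307 as lower. STAU1 and ADAR are not among these 9884. Labels do not say whether the 3 arrays of a group came from separate cultures, so p-values measure the spread between these samples, which may be technical. An exact permutation test of 3 arrays against 3 cannot go below p = 0.1.

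**Figure D1:**
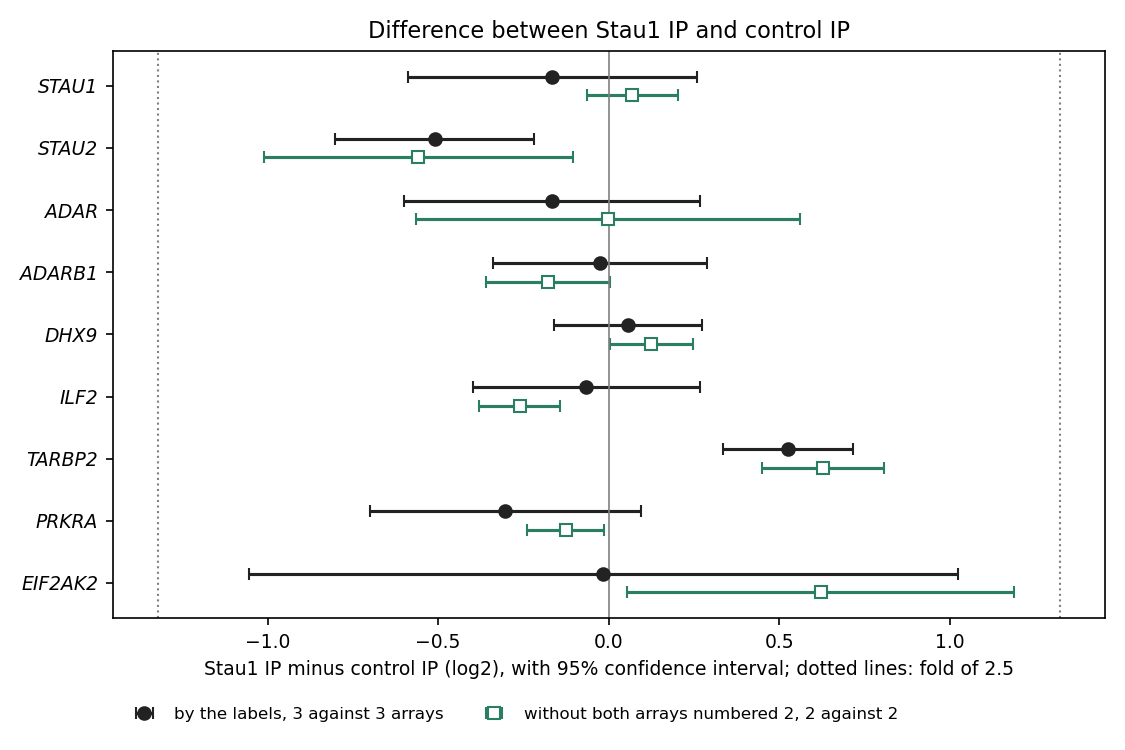
Difference between Stau1 IP and control IP of each transcript on the log2 scale, with 95% confidence intervals from limma, for all arrays by their labels (circles, 3 against 3) and without both arrays numbered 2 (squares, 2 against 2). The solid line marks no difference and the dotted lines a fold of 2.5. TARBP2 lies above 0 and STAU2 below 0 in both, while EIF2AK2 moves from -0.02 to 0.62.

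STAU1, on chromosome 20, codes for the protein that was tagged and precipitated. In control IPs 1 to 3 the deposited signal of STAU1 read 2499, 3246 and 2758, and in Stau1 IPs 1 to 3 it read 2845, 1857 and 3130. The groups overlapped, and the lowest value was on Stau1 IP 2 and the highest on control IP 2. On the normalized log2 scale the level was 11.60 ± 0.10 (SD, n = 3) in the control IPs and 11.44 ± 0.32 (SD, n = 3) in the Stau1 IPs. The log2 difference was -0.17 (95% confidence interval, CI, -0.59 to 0.26, limma adjusted p = 0.882), smaller than the spread between the Stau1 IP arrays. Without both arrays numbered 2 it was 0.07 (95% CI -0.06 to 0.20, limma adjusted p = 0.635). Leaving out Stau1 IP 2 alone gave 0.0202 (SE 0.06), and leaving out control IP 2 alone gave -0.12 (SE 0.20). The deposited table does not say which part of STAU1 its probes read, so this signal does not tell the cell's own transcript from plasmid RNA and is no check of the labels.

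The signal of STAU1 was bright on every array, and still it missed detection on control IP 1, with a detection p of 0.0542. It passed on 2 control IP arrays and on all 3 Stau1 IP arrays. ADAR behaved likewise, with a detection p of 0.0922 and 0.129 on control IP arrays 1 and 2. It passed on 1 control IP array and on all 3 Stau1 IP arrays. The bead number of a target is deposited as a mean over its probes. For STAU1 and ADAR it came in steps of 1/3, for TARBP2 of 1/2 and for ADARB1 and DHX9 of 1/4, while it was whole on all 6 arrays for STAU2, ILF2, PRKRA and EIF2AK2. The 5 members with fractional bead numbers are therefore combined from several probes, which cannot be separated here. The 7 members other than STAU1 and ADAR were detected on all 6 arrays.

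STAU2, on chromosome 8, codes for the paralog of Staufen1. For STAU2 the deposited signal was 228, 213 and 162 in control IPs 1 to 3, against 128, 124 and 130 in Stau1 IPs 1 to 3. All 3 Stau1 IP arrays, the array numbered 2 included, lay below all 3 control IP arrays. The level was 8.28 ± 0.23 (SD, n = 3, log2) in the control IPs and 7.77 ± 0.03 (SD, n = 3) in the Stau1 IPs. Between the groups the log2 difference was -0.51 (95% CI -0.80 to -0.22), which is 1.42-fold lower on the normalized scale. That scale understates changes of dim transcripts. It did not pass after adjustment over all targets (adjusted p = 0.297 from limma), and p was 0.1 in a two-sided exact permutation test. Without both arrays numbered 2 the log2 difference was -0.56 (limma adjusted p = 0.201, where the alternatives ranged from 0.179 to 0.811). After subtraction of the negative-control median, 150, 123 and 84.0 units of signal remained in control IPs 1 to 3. The transcript lay close to background in the Stau1 IPs, where 50.6, 35.0 and 44.5 units remained on arrays 1, 2 and 3. The size of its difference therefore depended on how dim signals were treated. It was -0.08 (SE 0.02) with neqc and -0.96 (SE 0.18) with log2 of the subtracted signal plus 50. The background in neqc was estimated from the deposited detection p, which was not under 0.05 for some bright targets too. Whether this shrank the neqc value was not tested.

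ADAR, on chromosome 1, codes for the editing enzyme of most tissues. The ADAR signal as deposited was 711, 1165 and 1073 in control IPs 1 to 3 and 861, 631 and 1178 in Stau1 IPs 1 to 3. The groups overlapped, with control IP 1 and Stau1 IP 2 at the low end. The log2 difference was -0.17 (95% CI -0.60 to 0.27, limma adjusted p = 0.884), and -0.0021 without both arrays numbered 2. ADAR was the member for which Stau1 IP arrays 1 and 3 differed most, by -0.30 on the log2 scale.

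ADARB1, on chromosome 21, codes for the related enzyme that edits glutamate receptor transcripts in brain. In control IPs 1 to 3 the deposited signal of ADARB1 read 240, 275 and 219, and in Stau1 IPs 1 to 3 it read 216, 248 and 244. After normalization the arrays of both groups overlapped, and Stau1 IP 2 was the highest. Between the groups the log2 difference was -0.03 (95% CI -0.34 to 0.29, limma adjusted p = 0.982), and -0.18 without both arrays numbered 2 (adjusted p = 0.302 from limma). By the labels, the difference of neither editing enzyme exceeded the spread between arrays. Without both arrays numbered 2 the groups did not overlap for ADARB1 and did for ADAR. The share of all targets without overlap in this comparison of 2 arrays against 2 was not counted, so nothing is drawn from it.

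DHX9, on chromosome 1, codes for an RNA helicase with double-stranded RNA-binding domains. For DHX9 the deposited signal was 196, 230 and 196 in control IPs 1 to 3, against 257, 164 and 258 in Stau1 IPs 1 to 3. Stau1 IP arrays 1 and 3 were the highest and Stau1 IP 2 the lowest of all 6, with the control IPs between them. The log2 difference was 0.06 (95% CI -0.16 to 0.27, limma adjusted p = 0.933), and 0.13 without both arrays numbered 2 (95% CI 0.0046 to 0.25, limma adjusted p = 0.273).

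ILF2, on chromosome 1, gave a deposited signal of 17121, 15414 and 15864 in control IPs 1 to 3 and of 12738, 19891 and 13480 in Stau1 IPs 1 to 3. The place of the Stau1 IPs around the control IPs was the reverse of that for DHX9, with Stau1 IP 2 the highest and Stau1 IP arrays 1 and 3 the lowest. Between the groups the log2 difference was -0.07 (95% CI -0.40 to 0.27, limma adjusted p = 0.95). Without both arrays numbered 2 it was -0.26 (95% CI -0.38 to -0.14), with a limma adjusted p of 0.0644, the lowest of the alternatives, which ranged up to 0.995.

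**Figure D2:**
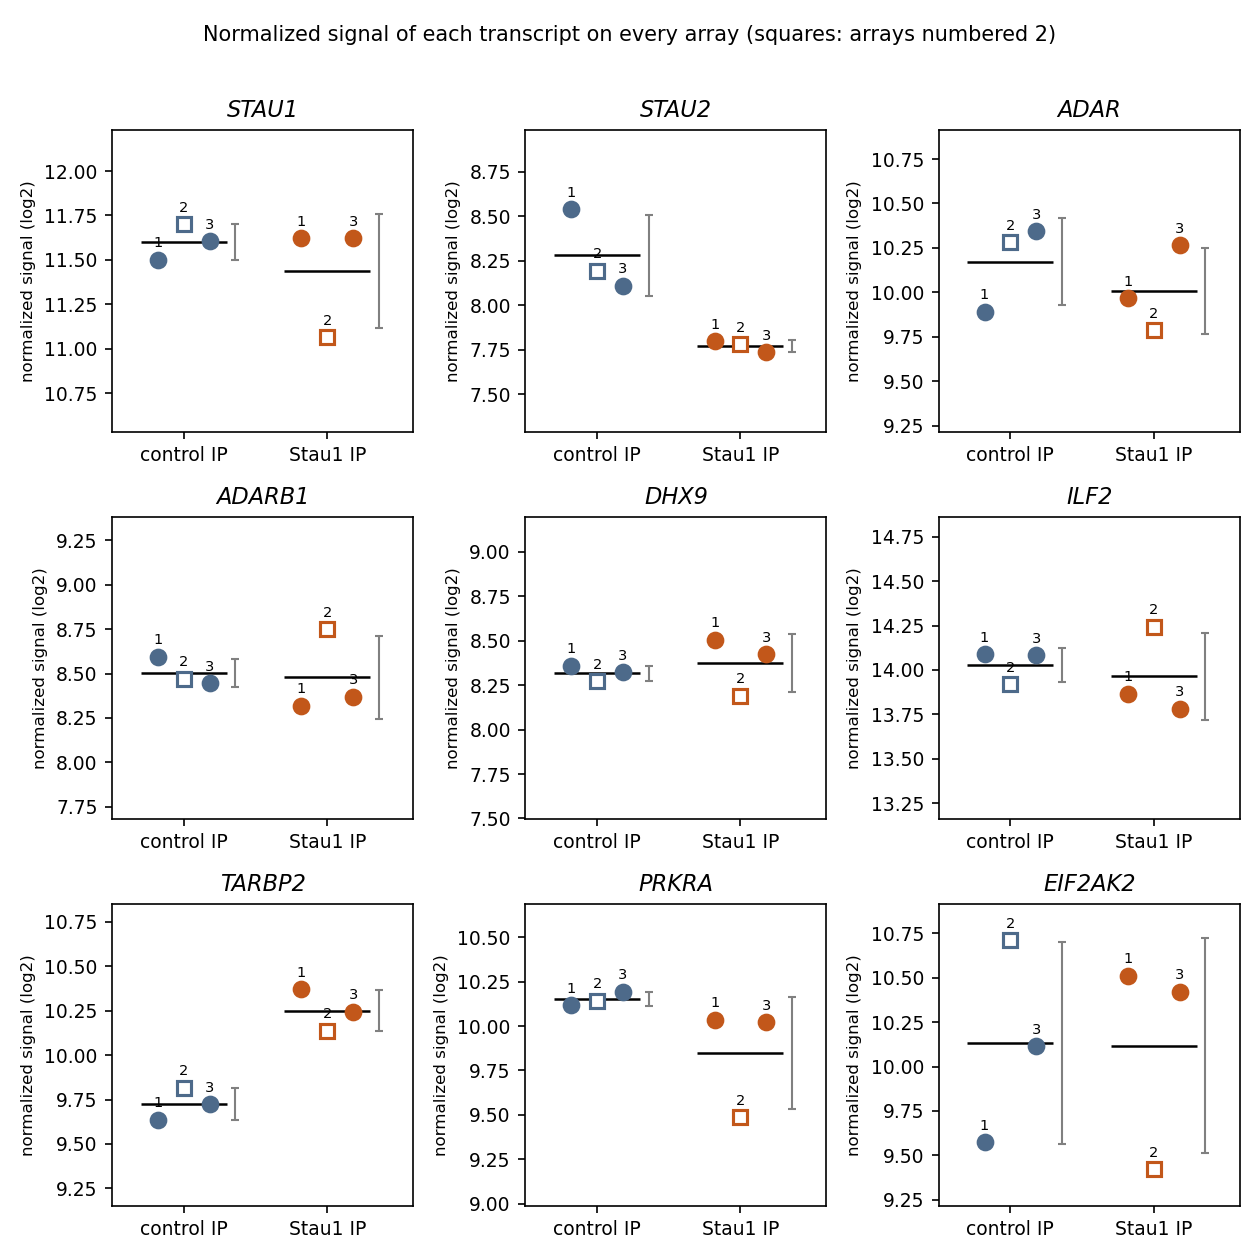
Normalized signal (log2) of each transcript on the 3 control IP arrays (blue) and the 3 Stau1 IP arrays (orange), with the replicate number above each point. Squares are the arrays numbered 2, black lines are group means, grey bars are SDs (n = 3), and every panel spans the same range of log2 units. All Stau1 IP arrays of TARBP2 lie above, and all those of STAU2 below, the control IP arrays, while Stau1 IP 2 lies far below arrays 1 and 3 for STAU1, PRKRA and EIF2AK2.

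TARBP2, on chromosome 12, codes for TRBP, which binds Dicer and also restrains EIF2AK2. The TARBP2 signal as deposited was 576, 822 and 656 in control IPs 1 to 3 and 1167, 862 and 1161 in Stau1 IPs 1 to 3. All 3 Stau1 IP arrays lay above all 3 control IP arrays, with control IP 2 the highest of the controls and Stau1 IP 2 the lowest of the Stau1 IPs. The normalized level was 9.73 ± 0.09 (SD, n = 3, log2) in the control IPs and 10.25 ± 0.12 (SD, n = 3) in the Stau1 IPs. The log2 difference was 0.53 (95% CI 0.33 to 0.72), which is 1.44-fold higher. It was larger than the spread within either group but did not pass after adjustment over all targets (adjusted p = 0.170 from limma), and p was 0.1 in a two-sided exact permutation test. Without both arrays numbered 2 the log2 difference was 0.63 (95% CI 0.45 to 0.81) and passed (limma adjusted p = 0.0275, where the alternatives ranged from 0.0275 to 0.679). The arrays left out were chosen from these same data, so this p and interval may be too small. With these arrays left out, 2.94% of all targets passed as higher in the Stau1 IPs and 2.03% as lower, and TARBP2 was the 1 member that did. That is 11.1% of the members, where 15.4% of the targets detected on all 6 arrays passed in either direction. Under each of the 18 alternatives TARBP2 remained higher in the Stau1 IPs, by between 0.46 and 0.63 on the log2 scale.

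PRKRA, on chromosome 2, codes for PACT, a relative of TRBP that activates EIF2AK2. In control IPs 1 to 3 the deposited signal of PRKRA read 853, 1050 and 954, and in Stau1 IPs 1 to 3 it read 908, 477 and 980. The deposited signals of the groups overlapped, and only after normalization did all 3 Stau1 IP arrays lie below the control IP arrays. Most of the distance came from Stau1 IP 2, at 9.49 on the normalized log2 scale against 10.04 and 10.02 on Stau1 IP arrays 1 and 3. Between the groups the log2 difference was -0.30 (95% CI -0.70 to 0.10, limma adjusted p = 0.704), and -0.13 without both arrays numbered 2 (adjusted p = 0.241 from limma). TARBP2 and PRKRA, whose proteins are alike in structure and act on the same kinase, thus had differences of opposite sign, of which neither passed by the labels. The difference between these transcripts was not tested.

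EIF2AK2, on chromosome 2, codes for the kinase PKR and had the widest range of the 9 over the arrays after normalization, 1.29 on the log2 scale. For EIF2AK2 the deposited signal was 548, 1598 and 897 in control IPs 1 to 3, against 1293, 450 and 1325 in Stau1 IPs 1 to 3. Control IP 2 was the highest array and Stau1 IP 2 the lowest, 4.17-fold apart after background subtraction (4.28-fold for the dimmer STAU2), while the standard error between beads lay between 3.57% and 6.0% of the subtracted signal. The level was 10.13 ± 0.57 (SD, n = 3, log2) in the control IPs and 10.12 ± 0.60 (SD, n = 3) in the Stau1 IPs. The log2 difference was -0.02 (95% CI -1.05 to 1.02, limma adjusted p = 0.996), an interval that reached about 2-fold in both directions. Control IP 2 lay 0.87 above the mean of control IP arrays 1 and 3 and 0.25 above that of Stau1 IP arrays 1 and 3, and Stau1 IP 2 lay at -0.42 from the former and at -1.04 from the latter. Without both arrays the log2 difference was 0.62 (95% CI 0.05 to 1.19), or 1.54-fold higher in the Stau1 IPs, and it did not pass (limma adjusted p = 0.25).

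The standard error between beads describes the precision within 1 array and not the spread between samples. For all 9 transcripts this error stayed under 13% of the subtracted signal on every array, and it was highest for the dim STAU2 (up to 12.4%) and lowest for ILF2 (down to 1.99%). In background-subtracted signal, before normalization between arrays, the highest array exceeded the lowest by 1.34-fold for ADARB1, 1.56-fold for ILF2 and 1.78-fold for STAU1, and by over 2-fold for the other 6. Stau1 IP arrays 1 and 3 differed by no more than they did for ADAR in any of the 9.

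**Figure D3:**
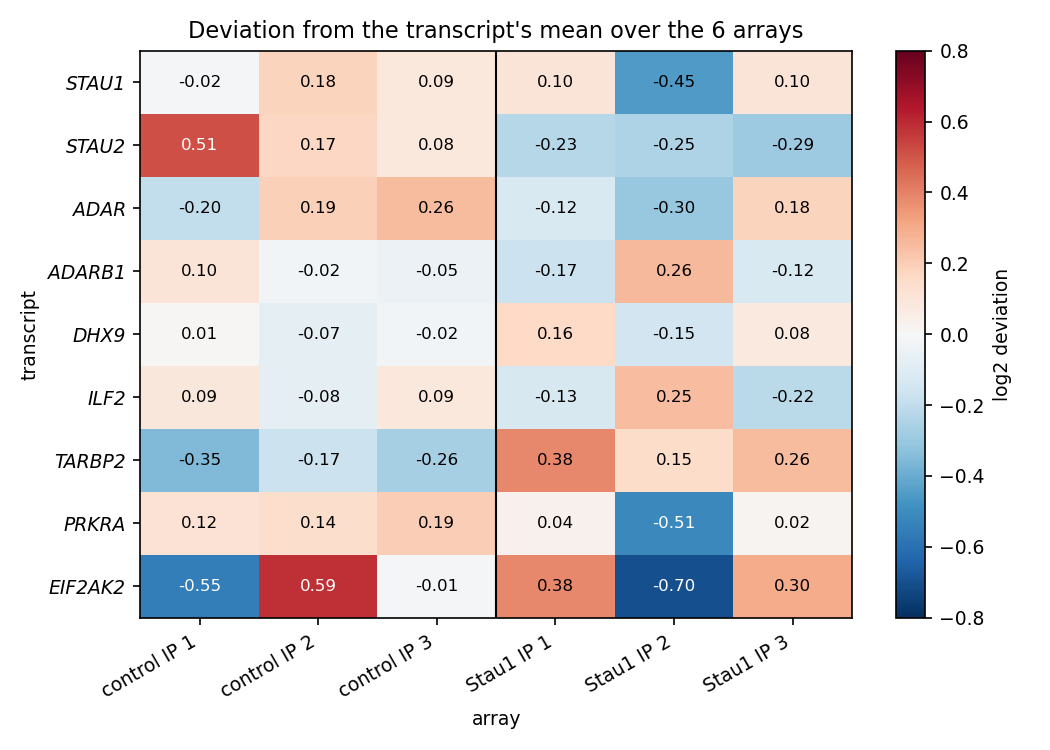
Deviation of each transcript on each array from its own mean over the 6 arrays, in log2 units of the normalized signal, with control IPs left and Stau1 IPs right of the line. Red is above and blue below the mean. The column of Stau1 IP 2 holds the lowest value of 5 transcripts and the highest of 2, and the rows of STAU2 and TARBP2 change sign between the groups.

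Stau1 IP 2 was the lowest of the 6 arrays for 5 of the 9 transcripts (STAU1, ADAR, DHX9, PRKRA and EIF2AK2) and the highest for ADARB1 and ILF2. Among the 9884 targets detected on all 6 arrays it was the lowest for 25.5% and the highest for 29.4%. For STAU1, ILF2 and EIF2AK2 both arrays numbered 2 lay nearer to arrays 1 and 3 of the other group than to those of their own, which is 33.3% of the members and 35.4% of those 9884 targets. Over all targets it was 28%, and the share among the members lay between these. STAU1 is not among the 9884, as it was not detected on all 6 arrays. Taken singly, control IP 2 lay nearer to the other group for 33.3% of the members and 47.4% of the 9884. For Stau1 IP 2 these shares were 55.6% and 60.2%. STAU2, ADAR, PRKRA and TARBP2 were those for which both arrays numbered 2 lay nearer to their own group, by a narrow margin for ADAR. The share of all targets for which this held is not given here. For STAU1 the margin was narrow too, since the means of arrays 1 and 3 of both groups lay 0.07 apart on the log2 scale.

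Without both arrays numbered 2, 6 of the 9 transcripts had an unadjusted p under 0.05 by limma, or 66.7%, where 17.2% of all targets and 47.5% of the targets detected on all 6 arrays had one. TARBP2, DHX9 and EIF2AK2 were then higher in the Stau1 IPs and ILF2, STAU2 and PRKRA lower. In this comparison of 2 arrays against 2, 0 members exceeded a fold of 2.5, which 0.565% of all targets did with an unadjusted p under 0.05 as higher and 0.037% as lower.

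The pattern of STAU1 over the 6 arrays was most like that of CAP2 (Pearson correlation of the normalized values 0.999), OCRL (0.997) and CREBZF (0.993), among 9444 targets with a symbol that were detected on all 6 arrays. All of them had their lowest value on Stau1 IP 2, at 8.16 for CAP2 against 9.02 to 9.35 on the other arrays. Of the other members, PRKRA came closest to STAU1, at 0.930. The pattern of TARBP2 was most like that of RNF166 (0.995), ISOC2 (0.994) and NUBP2 (0.992), with log2 differences of 0.67, 0.59 and 0.50. These correlations rest on 6 arrays and were picked as the highest of many, and they describe the arrays only.

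Related transcripts were read through 4 lists. Of 15 measured targets for other proteins with a double-stranded RNA-binding domain or the DZF domain that ILF2 carries, 0 passed the threshold in either direction, and the median log2 difference was -0.03, where it was 0.0033 over all targets. The highest among those detected on all 6 arrays were DGCR8, the partner of Drosha, at 0.21, and DUS2L, a tRNA-modifying enzyme, at 0.18. The lowest were ZFR at -0.26 and STRBP, an RNA-binding protein of the male germ line, at -0.60. Without both arrays numbered 2, DGCR8, DUS2L, ZFR and STRBP had 0.14, 0.08, 0.10 and -0.52, so the sign of ZFR turned. RNASEN, which codes for Drosha, had -0.56 (limma adjusted p = 0.799) and -1.08 without both arrays numbered 2 (limma adjusted p = 0.0661). It was detected on 3 arrays and is named after its values were seen, with a deposited signal of 1202, 960 and 990 in control IPs 1 to 3 and of 445, 1181 and 649 in Stau1 IPs 1 to 3. STRBP gave a deposited signal of 396, 401 and 355 in control IPs 1 to 3 and of 281, 160 and 287 in Stau1 IPs 1 to 3. Its groups did not overlap, and it did not pass after adjustment (adjusted p = 0.309 from limma, and 0.0587 without both arrays numbered 2).

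The small RNA effector proteins, which load and act with small RNAs, gave 9 targets with a median log2 difference of 0.02, and 0 passed. They ranged from 0.26 for SND1 and 0.09 for XPO5, the export receptor of precursor microRNAs, to -0.06 for TNRC6A and -0.13 for EIF2C2, which codes for Argonaute2. With both arrays numbered 2 left out, SND1, XPO5, TNRC6A and EIF2C2 had 0.19, 0.20, -0.14 and -0.10. The sensors of double-stranded RNA without such a domain were mostly not detected, with 7 of 10 targets detected on no array, among them IFIH1, TLR3, OAS1, OAS2 and OAS3. ZBP1, at -0.18, was detected on all 6 arrays. None of this list passed by the labels, and ZBP1 passed without both arrays numbered 2 (log2 difference -0.29, adjusted p = 0.0466 from limma).

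The pathway around EIF2AK2, of the other eIF2 kinases, eIF2 and its exchange factor eIF2B, and their effectors, gave 15 targets with a median log2 difference of -0.06, and 0 passed by the labels. EIF2AK4 (GCN2), a kinase that senses amino acid shortage, had 0.32 and EIF2S3, the gamma subunit of eIF2, had 0.31. EIF2S2, the beta subunit, had -0.39, and EIF2AK1 (HRI), the kinase that senses heme, had -0.47 with groups that did not overlap (adjusted p = 0.387 from limma). Without both arrays numbered 2, 5 of the 15 passed by the adjusted p from limma, or 33.3%, where 15.4% of the targets detected on all 6 arrays did. EIF2S3 was then higher by 1.14 on the log2 scale (adjusted p = 0.0246 from limma) and EIF2AK1 lower, at -0.68 (adjusted p = 0.0244 from limma). The others, named after their values were seen, were DDIT3, EIF2B4 and EIF2B2, at -0.68, -0.50 and -0.45. EIF2AK4 and EIF2S2 were then at 0.51 and -0.81 and did not pass by the adjusted p from limma. The deposited signal of EIF2S3 was 2565, 5464 and 3196 in control IPs 1 to 3 and 6417, 1898 and 6993 in Stau1 IPs 1 to 3. As for EIF2AK2, control IP 2 was the highest of the controls and Stau1 IP 2 the lowest of all 6 arrays.

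**Figure D4:**
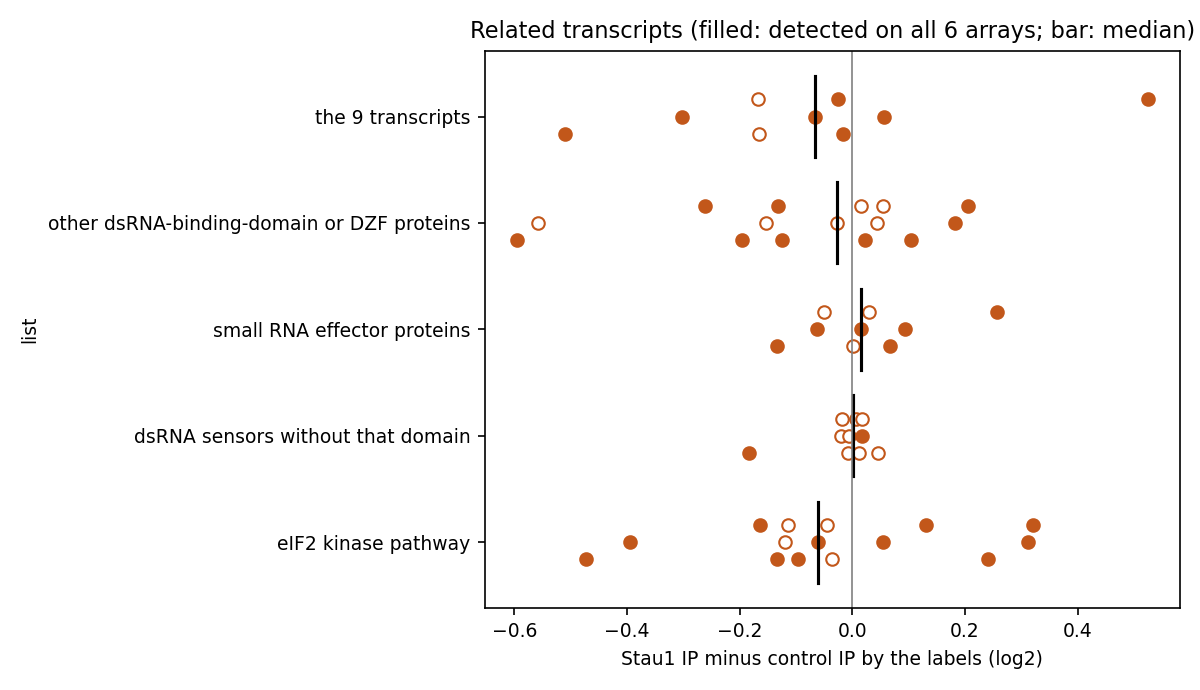
Log2 difference between Stau1 IP and control IP by the labels for the 9 transcripts and the targets of 4 related lists, 1 point per target. Filled points were detected on all 6 arrays and bars are medians. No point reaches a fold of 2.5, and most sensors of double-stranded RNA lie near 0 and were not detected on all arrays.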

How the data were processed

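The authors hybridized RNA from 3 control IPs and 3 Stau1 IPs and deposited, per the file headers without normalization, the signal intensity of each target on each array. With it were deposited the bead number, a detection p-value and the standard error of the intensity over beads, all from BeadStudio, which averages probes of one target. From there, the negative-control median, estimated from the signals of the 200 targets whose detection p lay nearest 0.5, was subtracted. A variance stabilizing transformation was fitted to the bead SD on each array (500 bins, without the lowest 33.3% of signals), which gives log2 values at the bright end and understates changes of dim transcripts. Robust spline normalization with 10 knots mapped the arrays on control IP 2. Fits that left arrays out used these same normalized values, so control IP 2 set the scale there too. These steps rebuild those named in the methods, whose own software was not used. They gave far fewer targets past the threshold than the authors report. The groups, taken from the labels, were compared over all 37879 targets with lmFit and eBayes in limma 3.58.1 (R 4.3.3, mgcv 1.9.3), with Benjamini-Hochberg adjustment. Plots were drawn with Python 3.11.15 and matplotlib 3.10.9. On simulated arrays with 200 targets changed 4-fold, 88% were called in the right direction, with 0 false calls at the threshold of the methods and 8 at an adjusted p under 0.05. The median log2 difference was 1.82 for raised and -1.66 for lowered targets, both smaller than simulated. How bright the changed targets were, how far simulated arrays spread and whether any lay apart like those numbered 2 are not given here. The 88% therefore does not give the chance of calling a real change of a member. The number of arrays limits the precision.

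The members and lists were chosen with earlier results of these data known. The named genes were all 9 members, the 2 highest and 2 lowest of each list among targets detected on all 6 arrays, and the 3 targets most correlated with STAU1 and with the member of the largest difference. RNASEN and targets of the lists detected on no array were named outside this rule, and some members of the lists are not reported here. Alternatives were neqc, log2 of the subtracted signal plus 50, no background subtraction, Stau1 IP 1 as reference, median centring, quantile or no between-array normalization, a detection filter, eBayes with trend, the methods' t-test, the replicate block, a 2-fold threshold, and leaving out each array or both arrays numbered 2.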

Additional observations from a re-analysis of the deposited data

How the results depend on the processing

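The number of members past the threshold of the methods was 0 under every alternative run, as was that of the listed related targets. The number of members with an adjusted p under 0.05 was 0 except without both arrays numbered 2, where it was 1 (TARBP2). STAU2, ADAR, PRKRA and TARBP2 kept their direction under all 18 alternatives. The sign turned without both arrays numbered 2 for EIF2AK2 (0.621) and STAU1 (0.0694), without between-array normalization for EIF2AK2 (0.0198) and ADARB1 (0.0035), and with Stau1 IP 1 as reference for EIF2AK2 (0.019) and ILF2 (0.0122). When single arrays were left out, the log2 difference ranged from -0.26 to 0.0202 for STAU1, from -0.16 to 0.0544 for ADARB1, from -0.0092 to 0.15 for DHX9, from -0.21 to 0.0246 for ILF2 and from -0.30 to 0.33 for EIF2AK2. For STAU1 the sign turned without Stau1 IP 2 alone, and for EIF2AK2 without control IP 2 (0.27) or Stau1 IP 2 (0.33). Fewer arrays enter these fits, and beyond that the cause was not tested. Arrays that share a number deviated from their group means in opposite directions (correlations of -0.46, -0.78 and -0.38). The arrays numbered 2 enter these means, so the correlations cannot tell whether arrays were paired by replicate number. The replicate block called no member (adjusted p = 0.544 for TARBP2 and 0.547 for STAU2 from limma). Signal over background limits STAU2 most.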

Other observations

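The detection p of bright targets followed the bead numbers over the whole table, which was seen while STAU1 and ADAR were examined. Of 4767 targets with a mean subtracted signal above 200 and a whole bead number on all 6 arrays, 11 (0.231%) missed detection on at least 1 array. Of 2198 such targets with a fractional bead number on some array, which are combined from several probes, 510 (23.2%) missed it, and 119 were detected on no array. A filter on the deposited detection p therefore removes bright targets read by several probes more often than those with whole bead numbers.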
